A study of Mus musculus with 30 samples.

Results

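The genes described here were 45 genes of the cell cycle and of mitosis, out of 20093 genes listed in at least 1 of the 14 deposited tables, and they were found by their gene symbols. They were read in 5 classes: 10 genes of DNA replication (Pcna, Mcm2 to Mcm7, Rrm1, Rrm2 and Tyms), 24 genes of the G2 phase and mitosis, 6 genes of the G1/S transition (the D and E cyclins and E2f1), 4 inhibitors of cyclin-dependent kinases (CDK), and Stmn1. All libraries came from C57BL/6 mice that carried the ColVI-cre transgene and the Rosa mTmG reporter, controls included. In these mice the Cre recombinase follows a collagen VI promoter, and the reporter switches a cell from red (Tomato) to green (GFP) fluorescence once Cre has acted in it or in a cell it descends from, so that GFP records past as well as present Cre activity. Freshly isolated intestinal mesenchymal cells from the colon were sorted into GFP-positive and GFP-negative (Tomato) cells, in normal mice and in mice with colitis induced with DSS (dextran sulfate sodium), which injures the colonic epithelium. In normal mice, mesenchymal cells of the small intestine were also sorted into GFP-high, GFP-low and GFP-negative cells. An unsorted preparation, labelled as intestinal rather than mesenchymal cells, accompanied each of the 3 tissues. The labels gave 30 libraries in 10 groups of 3. Values of 29 were used, with 2 in the unsorted small intestine. Neither the age of the mice, nor the dose or length of the DSS treatment, nor whether animals were pooled is stated in the labels.

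Cells copy their DNA in S phase and divide in mitosis, and each step has its own set of transcripts. The MCM proteins form the helicase that opens DNA at replication forks, Pcna is the sliding clamp of the DNA polymerases, and Rrm1, Rrm2 and Tyms supply deoxynucleotides. The mitotic genes are transcribed later in the cycle. They encode the kinases (Cdk1, Plk1, Aurka, Aurkb), spindle motors, centromere proteins and proteins of the ubiquitin pathway (Ube2c, Cdc20) that separate the chromosomes. D cyclins (Ccnd1, Ccnd2, Ccnd3) bind CDK4 and CDK6 in G1 and respond to growth signals, so that, unlike the mitotic genes, they can be abundant in cells that are not dividing. The CDK inhibitors p21 (Cdkn1a), p27 (Cdkn1b), p57 (Cdkn1c) and p18 (Cdkn2c) hold cells out of the cycle. Fibroblasts and related mesenchymal cells of the adult gut are mostly quiescent, whereas the epithelium above them renews continually.

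Promoters of mitotic genes are known for a pair of elements bound by the DREAM and MuvB complexes and by NF-Y, and those of replication genes for E2F sites. A promoter window of 300 bases, 250 before and 50 after the transcription start, was found for 35 of the 45 members in the RefSeq table for GRCm38.p6. On either strand, the cell cycle homology region (CHR), searched as TTTGAA or TTTAAA, was present for 18 of the 20 mitotic members with a window (90%), against 30.6% of all 27025 genes with a window. The CCAAT box, searched as CCAAT, was present for 18 of 20 mitotic members and 8 of 9 replication members (88.9%), against 41.1% of all genes. Both stood in the same gene for 17 of 20 mitotic members (85%) and 3 of 9 replication members (33.3%), against 12.2% of all genes. An E2F motif, searched as TTTGGCGC, TTTCGCGC, TTTCCCGC or TTTGGCGG, was present for 4 of 9 replication members (44.4%: Mcm3, Mcm5, Mcm6 and Mcm7) and 1 of 20 mitotic members (5%: Cdk1), against 2.7% of all genes. TTTAAA reads the same on both strands, and 2 of the E2F matches printed for Mcm6 overlap each other. The sequences upstream of 5 members are shown because their values differ later: Plk1 and Top2a rose in both sorted populations under DSS, Cdk1 and Mcm6 rose in GFP-positive cells, and Cdc20 rose in neither although its promoter has the same elements. They were chosen after the values were seen. They run 5′ to 3′ on the strand of the gene and stop before the gene as the deposited tables place it, and capitals mark the CHR, CCAAT and E2F matches. The Plk1 sequence is chr7:122159185-122159434 (plus strand), Top2a chr11:99024190-99024439 (minus), Cdk1 chr10:69352939-69353162 (minus), Cdc20 chr4:118437353-118437593 (minus) and Mcm6 chr1:128359706-128359955 (minus).
Plk1: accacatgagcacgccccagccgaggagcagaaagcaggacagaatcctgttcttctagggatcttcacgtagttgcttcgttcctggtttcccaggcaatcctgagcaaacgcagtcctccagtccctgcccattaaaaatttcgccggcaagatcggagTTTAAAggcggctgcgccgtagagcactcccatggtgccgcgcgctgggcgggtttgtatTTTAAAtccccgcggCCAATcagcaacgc
Top2a: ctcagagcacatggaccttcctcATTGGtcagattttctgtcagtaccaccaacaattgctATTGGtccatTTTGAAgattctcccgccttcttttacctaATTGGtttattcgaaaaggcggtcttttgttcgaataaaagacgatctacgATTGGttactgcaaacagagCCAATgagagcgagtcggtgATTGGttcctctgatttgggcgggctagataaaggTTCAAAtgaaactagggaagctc
Cdk1: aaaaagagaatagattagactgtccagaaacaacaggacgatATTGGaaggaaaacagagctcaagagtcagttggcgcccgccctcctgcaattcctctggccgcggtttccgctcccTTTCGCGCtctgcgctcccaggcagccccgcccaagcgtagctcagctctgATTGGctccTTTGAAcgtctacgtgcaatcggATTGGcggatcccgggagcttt
Cdc20: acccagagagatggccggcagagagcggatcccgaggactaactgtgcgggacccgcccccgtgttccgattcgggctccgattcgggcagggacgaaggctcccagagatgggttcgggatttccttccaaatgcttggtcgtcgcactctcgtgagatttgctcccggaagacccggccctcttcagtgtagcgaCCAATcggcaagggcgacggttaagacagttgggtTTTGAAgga
Mcm6: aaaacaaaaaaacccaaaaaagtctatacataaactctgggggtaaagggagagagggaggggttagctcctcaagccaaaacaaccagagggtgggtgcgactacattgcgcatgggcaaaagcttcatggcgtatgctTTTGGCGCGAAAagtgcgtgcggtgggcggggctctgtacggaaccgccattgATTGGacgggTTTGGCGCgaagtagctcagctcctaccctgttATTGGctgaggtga
In the printed stretches Plk1 has 2 CHR matches and 1 CCAAT, Top2a has 2 and 6, Cdk1 has 1 and 3 with 1 E2F match, Cdc20 has 1 and 1, and Mcm6 has no CHR, 2 CCAAT and 3 E2F matches. These are matches of letters and say nothing about what binds there in these cells.

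Expression was measured by 3' sequencing of messenger RNA, which counts reads near the end of each transcript. The values are the authors' normalised counts, rounded to whole numbers. In 25 of the 29 libraries the spacing of the low values gave the depth, between 1227000 and 4416000 reads in genes, so that 1 read was worth between 0.57 and 1.93 normalised counts; in the other 4 it could not be resolved. Each of the 3 tissues (normal colon, DSS colon, small intestine) was normalised on a scale of its own, and levels set across them are side by side only; tables of DSS against normal cells of 1 sort put both on 1 scale. Nothing in the labels says that replicates came from separate animals, so p-values measure the spread between these samples. The labels number the normal and the DSS colon libraries in separate ranges, without saying what the ranges stand for. An effect of DSS cannot be told apart from a difference between those ranges. As a check of the labels, 10 mesenchymal markers made up 1.18% to 3.22% of the counts in sorted colon and small intestinal libraries and 0.3% to 1.94% in unsorted ones. In sorted libraries 12 epithelial markers reached at most 0.045% of the counts and 12 immune markers at most 0.11%, whereas unsorted libraries held 0.0573% to 0.484% and 0.333% to 1.18%. For 8 members (Ccna2, Ccnd1, Ccnd3, Ccne2, Cdc20, Kif20a, Mcm7 and Prc1) the last 500 bases of the gene overlap an exon of a neighbour on the other strand in GENCODE vM21. Whether counting used strand is not given in the sources used here, so reads of those members and of the neighbour cannot be told apart.

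The 4 members that mark the class were all detected in the colon, in the order unsorted, GFP-positive, GFP-negative for the 3 mitotic ones. Top2a (chr11:98992943-99024189, minus strand), the topoisomerase that untangles sister chromatids, had 119, 190 and 174 normalised counts in the 3 unsorted libraries of normal colon, 51, 41 and 93 in GFP-positive cells and 15, 18 and 29 in GFP-negative cells. Birc5 (chr11:117849251-117855743, plus strand), survivin of the chromosomal passenger complex, had 169, 528 and 148, then 49, 27 and 46, then 15, 14 and 22 in the same order. Plk1 (chr7:122159439-122169873, plus strand), a kinase of mitotic entry and spindle assembly, had 54, 186 and 239, then 21, 15 and 28, then 4, 4 and 8. For these 3 genes the libraries of unsorted, GFP-positive and GFP-negative cells did not overlap. Here and below, the share of all genes whose libraries did not overlap between groups was not computed. Pcna (chr2:132249162-132253314, minus strand) did not follow them: it had 1001, 897 and 1173 in unsorted cells, 740, 285 and 777 in GFP-positive cells and 605, 793 and 733 in GFP-negative cells, so that the sorted groups overlapped.

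The same split held for the classes. In normal colon the group means of 17 of the 24 mitotic members fell in the order unsorted, GFP-positive, GFP-negative, and in DSS colon those of 21 of 24. For replication members this order held for 5 of 10 in normal colon and 7 of 10 in DSS colon. The share of all genes with this order was not computed. The mean over the 24 mitotic members of log2(normalised count + 1) lay between 4.05 and 4.66 in the 3 normal GFP-positive libraries and between 3.37 and 3.65 in the 3 GFP-negative ones, without overlap. Over the 10 replication members the corresponding means were 5.87 to 5.99 and 5.87 to 5.93, which overlapped. In the sorted cells of the small intestine the mitotic mean lay between 1.39 and 3.11, against 5.70 and 5.74 in the 2 unsorted libraries.

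**Figure D1:**
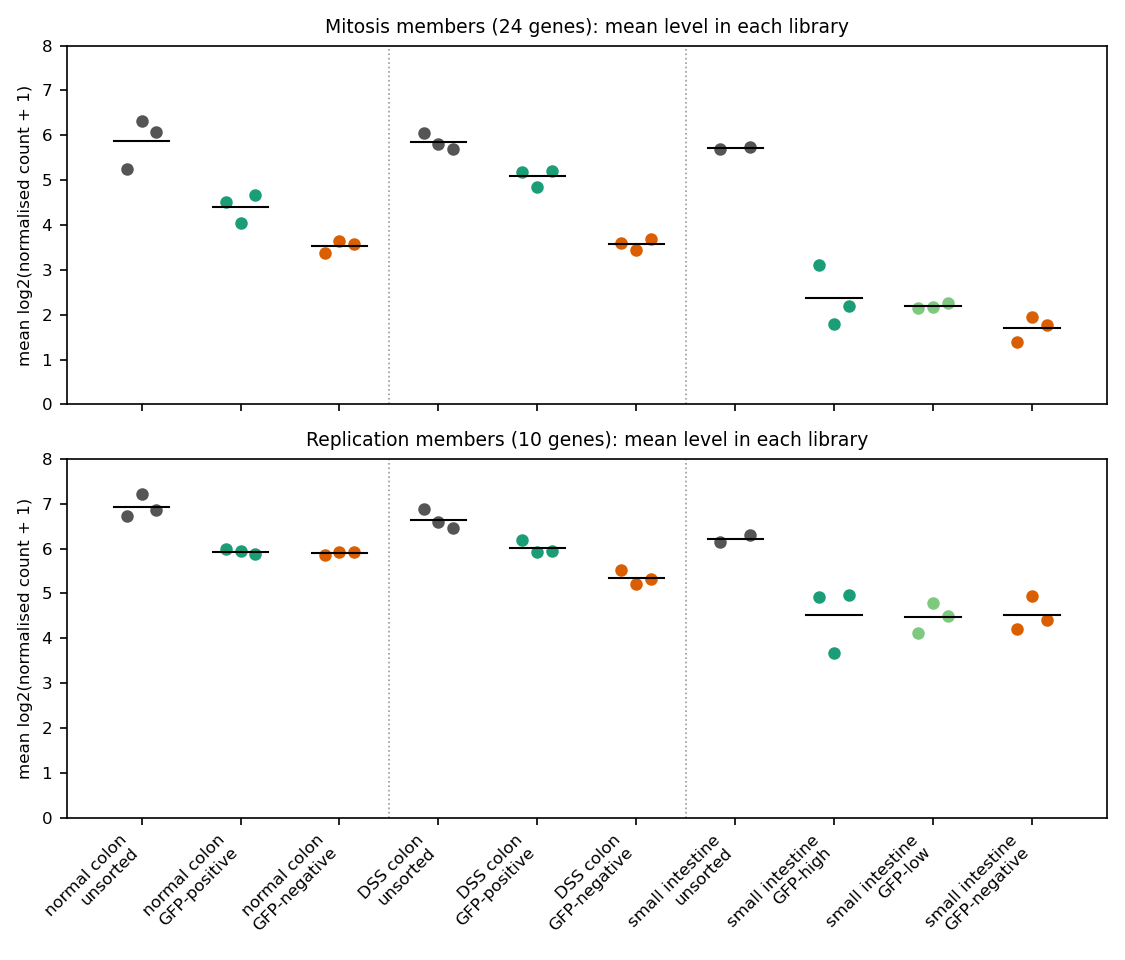
Mean log2(normalised count + 1) of the 24 mitotic members (top) and the 10 replication members (bottom) in each library, with 1 point per library and a line at the group mean. Dotted lines separate the 3 scales of normalisation; within each, unsorted libraries sit highest for the mitotic members, and sorted libraries of the small intestine lie between 1.39 and 3.11.

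In GFP-positive colon cells a block of mitotic genes was higher under DSS. With limma on log2(normalised count + 1), 15 of the 42 members tested were higher and 3 lower at an adjusted p under 0.05, where 10.2% of all genes tested were higher and 9.46% lower. Of the 21 mitotic members tested, 10 rose (Birc5, Plk1, Cdk1, Cenpf, Top2a, Ccna2, Tpx2, Kif11, Aurkb and Mki67) and none fell, with a median log2 fold change of 1.08, against -0.00845 over all genes tested. Of the 10 replication members, 4 rose (Mcm3, Mcm4, Mcm5 and Mcm6) and 1 fell (Pcna), with a median of 0.80. Ccnb1, Bub1 and Cenpe were under the minimum mean of 10 in both groups, and 3 of the 10 mitotic genes that rose (Mki67, Aurkb and Kif11) passed that minimum only through the DSS cells. Among mitotic members past it in both groups, 7 of 18 rose, with a median of 1.01. In bulk samples such as these, more cells in cycle and more of each transcript per cell cannot be told apart.

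Birc5 had 41, 23 and 39 normalised counts in the 3 normal GFP-positive libraries and 180, 142 and 159 in the 3 DSS libraries, a log2 fold change of 2.23 (SE 0.26, adjusted p = 0.000141). Plk1 had 17, 13 and 23 in normal cells and 104, 72 and 106 in DSS cells, a log2 fold change of 2.36 (SE 0.30, adjusted p = 0.000214). Top2a had 42, 34 and 78 in normal cells and 198, 109 and 176 in DSS cells (log2 fold change 1.68, SE 0.32, adjusted p = 0.00429). For each of the 3 genes the lowest DSS library lay above the highest normal library. The mitotic kinase Cdk1 rose by 1.95, its cyclin partner Ccna2 by 1.20, the kinetochore protein Cenpf by 1.80, the spindle assembly factor Tpx2 by 1.45, the spindle motor Kif11 by 2.15, Aurkb, the kinase that works with survivin, by 2.59 and the proliferation marker Mki67 by 1.59 on the log2 scale. Some of these rest on few counts: Mki67 had 5, 3 and 7 in normal cells and 18, 11 and 22 in DSS cells, and Aurkb had 3, 0 and 4 against 19, 19 and 10 (both shown after their values were seen). With single libraries left out, Birc5, Plk1, Top2a, Cdk1, Ccna2 and Cenpf passed every time. Mki67 was lost without each of the libraries but the third normal one (adjusted p from 0.0543 to 0.145), Aurkb without the first or the second DSS library (0.0827 and 0.0885), Kif11 without the second or the third (0.0775 and 0.0756) and Tpx2 without the first or the third (0.0537 and 0.0511).

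Other mitotic members did not pass the test. Cdc20, the activator of the anaphase-promoting complex, singled out after its values were seen, had 512, 347 and 426 in normal cells and 409, 337 and 362 in DSS cells (log2 fold change -0.20, SE 0.20, adjusted p = 0.518). Its libraries overlapped, and it is among the members whose gene end overlaps a neighbour on the other strand (Elovl1). Aurka (log2 fold change -0.11), Bub1b (-0.58) and Ccnb2 (-0.65), a spindle kinase, a checkpoint kinase and a B cyclin, had negative values with adjusted p of 0.794, 0.23 and 0.188, and all 3 were measured at more counts than Mki67 in normal cells. Cenpa, the centromeric histone, had a log2 fold change of 1.08 with an adjusted p of 0.0523, just outside the threshold, and Pcna, at 0.0492, lay just inside it.

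Within the replication class 4 of the 6 helicase subunits rose, while Mcm2 and Mcm7 did not pass, and the clamp Pcna fell in a call that was lost without any 1 of 5 of the 6 libraries. Mcm6 had 42, 64 and 26 in normal GFP-positive cells and 163, 103 and 113 in DSS cells (log2 fold change 1.56, SE 0.32, adjusted p = 0.00512). Mcm3 had 47, 45 and 59 against 101, 103 and 137 (1.16, SE 0.24, adjusted p = 0.00516). In both genes all DSS libraries lay above all normal libraries. Mcm4 rose by 1.60 and Mcm5 by 1.17 on the log2 scale, though Mcm5 no longer passed without the first normal, the first DSS or the third DSS library (adjusted p from 0.085 to 0.115). Of the others, Mcm2 had 0.84 with an adjusted p of 0.0542, and Mcm7 had -0.42 (adjusted p = 0.305), with its gene end overlapping Cops6 on the other strand. Pcna had 619, 239 and 654 in normal cells and 228, 215 and 208 in DSS cells, a log2 fold change of -1.08 (SE 0.34, adjusted p = 0.0492). The second normal library stands close to the DSS libraries, and without it the fold change was -1.55 (adjusted p = 0.000168). Leaving out the first or the third normal library, or any 1 DSS library, gave values from -1.12 to -0.82 with adjusted p from 0.11 to 0.134, so that Pcna no longer passed.

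The G1 regulators changed separately from one another. Ccnd3 had 776, 830 and 739 in normal and 1900, 1497 and 1703 in DSS GFP-positive cells (log2 fold change 1.11, SE 0.19, adjusted p = 0.00189). Ccnd1 had 1712, 1744 and 1532 in normal and 1164, 767 and 728 in DSS cells (-0.94, SE 0.22, adjusted p = 0.0103). Without the second or the third DSS library Ccnd1 had adjusted p of 0.0636 and 0.0622, so that with Pcna 1 member in place of 3 was lower there. Neither gene had overlapping libraries, so that 1 cyclin D rose while another fell, and the ends of both genes overlap a neighbour on the other strand (Bysl for Ccnd3, LTO1 for Ccnd1). Ccnd2, Ccne1, Ccne2 and E2f1 did not pass the test, with log2 fold changes from -0.14 to 0.84. Cdkn1c had 71, 59 and 39 against 21, 22 and 11 under DSS (-1.61, SE 0.35, adjusted p = 0.00674) and was the only CDK inhibitor past the threshold in GFP-positive cells.

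Cdkn1a, named here after its values were seen, had 1577, 452 and 2806 in normal GFP-positive cells and 439, 310 and 232 in DSS cells, a log2 fold change of -1.99 (SE 0.70) that did not pass (adjusted p = 0.106). Every DSS library lay below every normal library, but the second normal library was close to them. Without that library the fold change was -2.73 (adjusted p = 0.000165), and fitted with all 4 sorted colon groups the value passed at an adjusted p of 0.0358. The same library had the lowest value for 7 of 13 other p53 target genes, which, on the scale of the normal colon, summed to 3976 normalised counts there and to 8034 and 7420 in the first and the third library, and it had the lowest value for 16 of the 24 mitotic members. Such counts also occurred elsewhere: the second DSS GFP-positive library was lowest for 16 of 24 mitotic members, and the third DSS GFP-positive and the first DSS GFP-negative library each for 7 of the 13 p53 targets. The values without the second normal library are those given above, and its part in the results of other members was not tested beyond leaving it out. In the DSS comparisons, 0 of the 13 p53 targets passed limma's test in GFP-positive cells and 0 of 13 in GFP-negative cells.

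**Figure D2:**
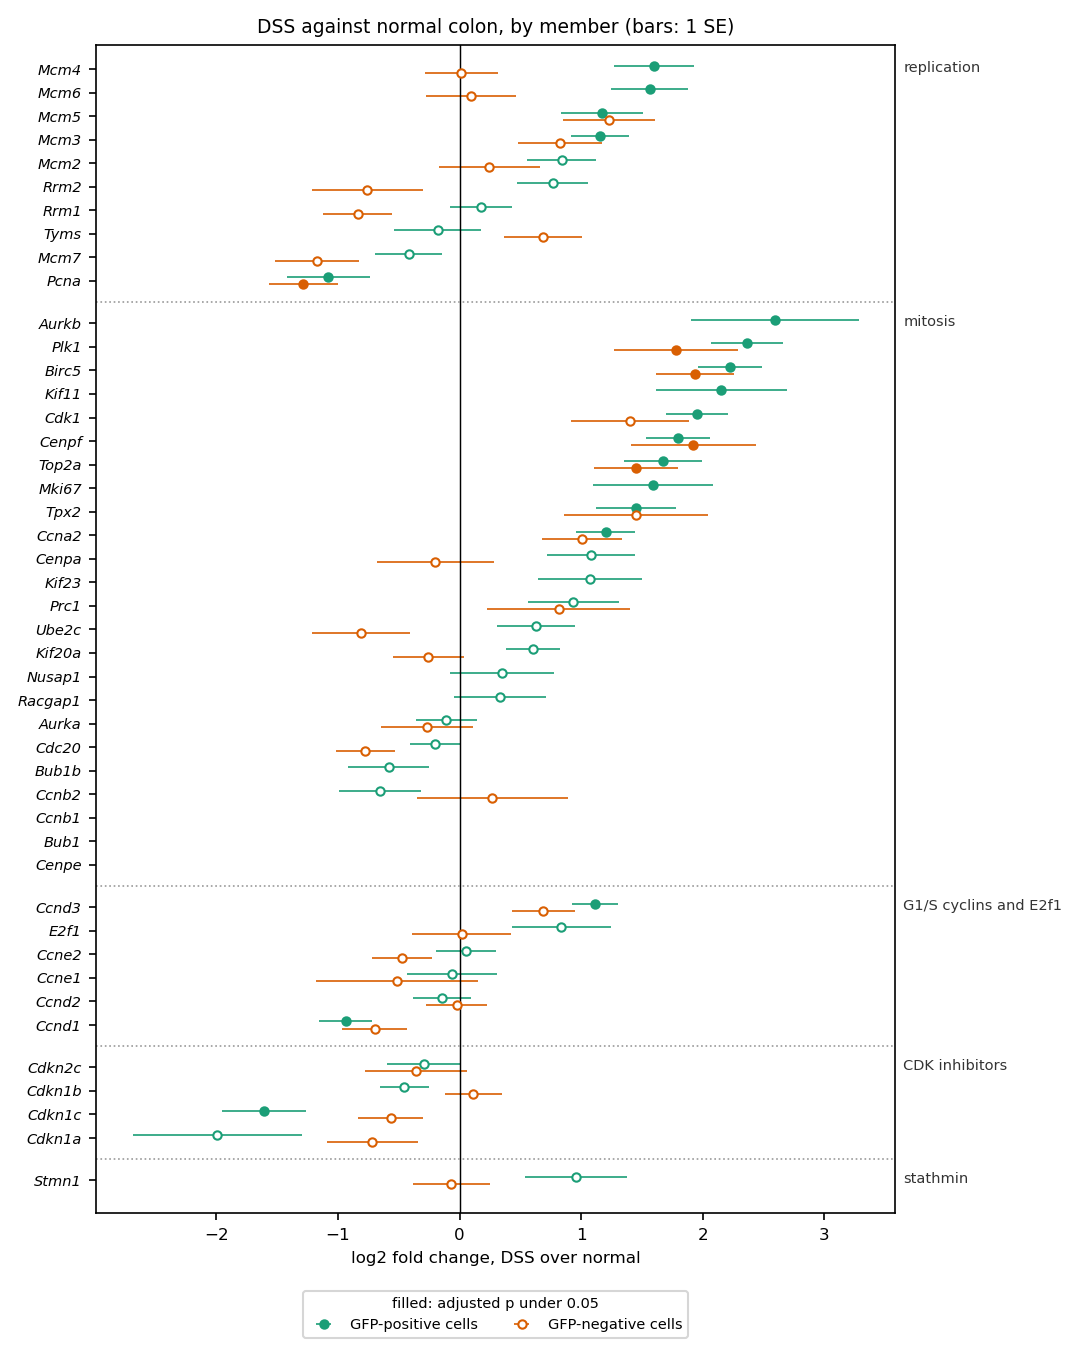
Log2 fold change of DSS over normal colon for each member in GFP-positive (green) and GFP-negative (orange) cells, with bars of 1 SE and filled points for an adjusted p under 0.05. Members without a point were under the minimum mean or absent from the table. In green 10 mitotic members are filled to the right of 0, and Birc5, Plk1, Top2a and Cenpf in both colours.

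In GFP-negative colon cells fewer members passed. Of 35 members tested, 4 were higher and 1 lower, against 6.03% of all genes tested higher and 4.27% lower. The 4 were all mitotic (Birc5, Top2a, Plk1 and Cenpf, of 14 mitotic members tested), and the mitotic median was 0.91 on the log2 scale, against -0.0157 over all genes tested. Aurkb, Bub1 and Ccnb1 are not in this table, and 7 further mitotic members, Mki67 among them, were under the minimum mean. Plk1, Cdk1, Cenpf and Tpx2 passed the minimum only through the DSS cells, and among the 10 mitotic members past it in both groups 2 rose, with a median of 0.0353.

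Birc5 had 13, 12 and 19 in normal GFP-negative cells and 60, 62 and 52 in DSS cells (log2 fold change 1.94, SE 0.32, adjusted p = 0.00344). Top2a had 13, 15 and 25 against 48, 43 and 54 (1.45, SE 0.34, adjusted p = 0.0216). Plk1 had 4, 4 and 7 against 12, 23 and 25 (1.78, SE 0.51, adjusted p = 0.0471). All DSS libraries of these genes lay above all normal ones, as in GFP-positive cells, at lower counts. Birc5 passed with any 1 library left out, whereas Top2a, Plk1 and Cenpf were each lost without the second normal, the second DSS or the third DSS library, which left 1 member higher, and Top2a and Cenpf also without the first DSS library, which left 2. Plk1 was also lost without the first normal library (adjusted p = 0.0537). Fitted with all 4 sorted colon groups, 9 members were higher and 4 lower. Of the 10 mitotic genes that rose in GFP-positive cells, 7 could be tested in GFP-negative cells, and all 7 had positive log2 fold changes there. For Plk1, Cdk1, Cenpf and Tpx2 that sign was largely set by the filter, which they passed only through the DSS cells. The 4 members that rose in GFP-negative cells were 26.7% of the 15 that rose in GFP-positive cells.

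Replication members had a median of 0.055 in GFP-negative cells, and Pcna was the member past the threshold. It had 509, 669 and 618 in normal cells and 365, 214 and 185 in DSS cells (log2 fold change -1.28, SE 0.29, adjusted p = 0.0158), without overlap, and no longer passed without the second normal, the second DSS or the third DSS library (adjusted p from 0.0697 to 0.102). Mcm4 (0.02) and Mcm6 (0.09), which rose in GFP-positive cells, had adjusted p of 0.98 and 0.896 here, and Mcm7 had -1.17 (adjusted p = 0.0503). Pcna was thus lower in both sorted populations, 1 of the 3 lower members (33.3%) in GFP-positive cells. The G1/S class and the CDK inhibitors had 0 members past limma's threshold here, with 0 under an FDR of 0.05 in the authors' deposited table. Ccnd3 (0.69, adjusted p = 0.113) and Ccnd1 (-0.70, adjusted p = 0.115) had the signs they had in GFP-positive cells. Cdkn1a had 689, 2096 and 1830 in normal cells and 759, 935 and 839 in DSS cells (-0.72, adjusted p = 0.242), and without the first normal library the value was -1.22 (adjusted p = 0.00388). That library also had the lowest value for 9 of the 13 p53 targets, which summed to 5311 there and to 7552 and 7773 in the other normal GFP-negative libraries.

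**Figure D3:**
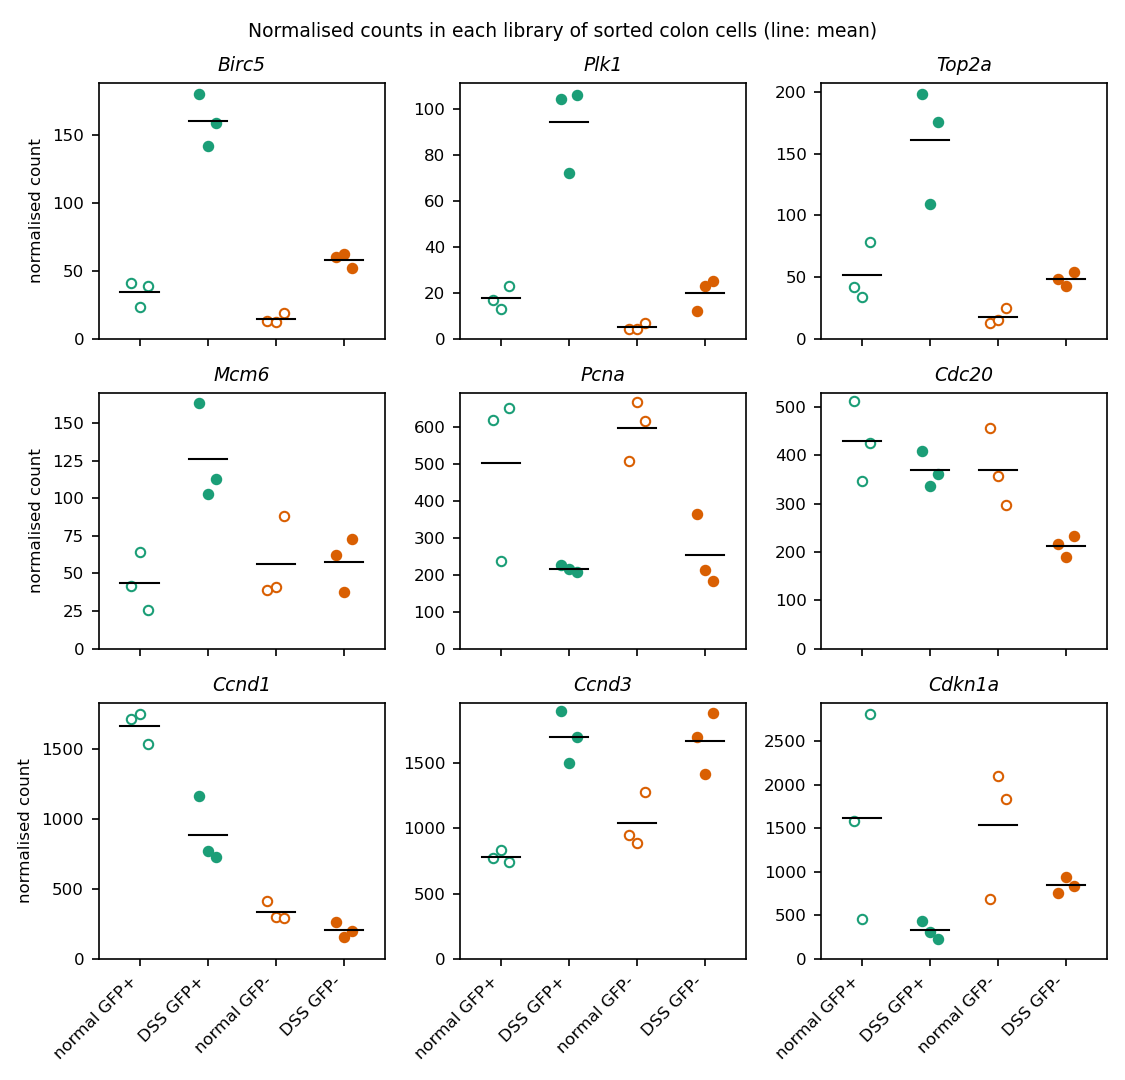
Normalised counts on the scale common to the sorted colon libraries of 9 members in each of the 12 sorted colon libraries, with open points for normal and filled points for DSS colon. Birc5, Plk1 and Top2a are higher under DSS in every library of both sorts, Pcna is lower, and the second normal GFP-positive library is low for Pcna (239) and Cdkn1a (452).

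The DSS responses of the 2 populations were then compared with each other. Of 41 members tested for a difference of response, 0 passed in either direction with limma, where 0.0148% of all genes were higher in GFP-positive cells and 0.0371% lower. At an unadjusted p under 0.05 were 9 members, and 1081 of all 13488 genes tested. The authors' tables hold no such comparison. The smallest p was that of Mcm4, whose response was 1.58 larger on the log2 scale in GFP-positive cells (SE 0.47, adjusted p = 0.426), followed by Rrm2 (1.52), Ube2c (1.44) and Mcm6 (1.47), with adjusted p from 0.477 to 0.492. Birc5 differed by 0.29 (SE 0.40), Plk1 by 0.58 (SE 0.53), Top2a by 0.23 (SE 0.48) and Pcna by 0.21 (SE 0.47). The larger count of calls in GFP-positive cells is therefore not shown to be a larger response of any member. The median difference was 0.39 for 20 mitotic members and 0.67 for the 10 replication members, against -0.0168 for all genes.

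Other genes of the cycle were read from 4 lists that share no gene with the members. In GFP-positive cells, where 10.2% of all genes tested were higher, 7 of 26 other S-phase genes tested rose and none fell, among them Fen1 (log2 fold change 1.56), which processes Okazaki fragments, the replication checkpoint adaptor Clspn (1.499) and Ubr7 (1.45). Of 26 other G2/M genes 5 rose, among them Pimreg (1.95), the passenger complex subunit Cdca8 (1.64) and the CDK subunit Cks1b (1.53), and the heterochromatin protein gene Cbx5 fell (-0.60). Of 18 other G1 regulators 4 rose, among them the activators of mitotic transcription Mybl2 (1.67) and Foxm1 (1.25), and E2f6 (0.93). The medians of the 3 lists were 0.76, 0.44 and -0.29. In GFP-negative cells 0 of 23, 2 of 22 (Cks1b, 1.10, and Rangap1, 0.79) and 1 of 16 (E2f3, 1.27) rose, and none fell, against 6.03% of all genes higher, so that these counts lay near or below the background. Of 10 mesenchymal markers, 5 (Col1a1, Col1a2, Col3a1, Vim and Lum) were lower under DSS in GFP-positive cells, where the summed share went from 2.14% to 2.89% of the counts in normal libraries to 1.18% to 1.39% in DSS libraries; the part of such a shift in the results for the cycle genes was not tested. In the same cells epithelial markers took from 0.00373% to 0.016% of the counts of normal libraries and from 0.0063% to 0.00729% of those of DSS libraries. Immune markers took from 0.00424% to 0.0142% and from 0.00538% to 0.015%, so that the ranges overlapped for both sets of markers. The part of such cells in the results for the cycle genes was not tested.

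GFP-positive and GFP-negative cells were compared directly within each tissue. In normal colon 3 of 39 members tested were higher in GFP-positive cells and 0 lower (by limma and by the authors' FDR), against 2.97% of all genes higher and 3.01% lower. Ccnd1 had 2047, 2079 and 1819 in GFP-positive and 493, 351 and 344 in GFP-negative cells (log2 fold change 2.34, SE 0.25, adjusted p = 0.000534). Tpx2 had 25, 20 and 31 against 4, 5 and 9 (1.95, SE 0.47, adjusted p = 0.0342) and Cenpf 23, 24 and 25 against 3, 6 and 9 (1.93, SE 0.49, adjusted p = 0.0421). Both passed the minimum mean only through GFP-positive cells and were lost when any library but the third GFP-negative one was left out, after which Ccnd1 was the member that remained. Top2a (1.498), Plk1 (1.83) and Birc5 (1.19) did not overlap between the groups but had adjusted p of 0.0547, 0.061 and 0.106. The median was 1.27 over 18 mitotic members and 0.029 over 10 replication members, against 0.00347 over all genes. Of the mitotic members 7 passed the minimum mean only through GFP-positive cells; over the 11 past it in both groups the median was 0.64 and 0 passed the test. With all 4 sorted colon groups in the fit, 8 members were higher.

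In DSS colon the separation was wide. Of 42 members tested 23 were higher in GFP-positive cells and 3 lower, against 8.22% and 8.9% of all genes. All 21 mitotic members tested had positive log2 fold changes, 16 of them past the threshold, with a median of 1.46 (0.0106 over all genes). Of the 21, 7 passed the minimum mean only through GFP-positive cells. Among the 14 past it in both groups 12 passed the test, with a median of 1.29. The largest were Kif23, a motor of cytokinesis, with 51, 27 and 33 in GFP-positive and 9, 4 and 5 in GFP-negative cells (2.46, SE 0.40, adjusted p = 0.000537), and Aurkb, with 17, 16 and 9 against 2, 0 and 6 (2.40, SE 0.70, adjusted p = 0.03). Kif23 and Aurkb both passed the minimum mean only through GFP-positive cells. Plk1 had 89, 61 and 91 against 10, 20 and 21 (2.22, SE 0.31, adjusted p = 0.000142), Birc5 154, 121 and 135 against 51, 52 and 44 (1.46, SE 0.20, adjusted p = 0.00014) and Top2a 169, 93 and 150 against 41, 37 and 46 (1.67, SE 0.25, adjusted p = 0.000217). No library of one group reached the other for these 5 genes. For Kif23 and Aurkb, picked as the largest changes, that separation follows largely from the choice and adds no support.

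Among replication members Rrm2, the regulated subunit of ribonucleotide reductase, had 45, 31 and 35 against 10, 15 and 5 (1.88, SE 0.39, adjusted p = 0.00324), and Mcm3, Mcm4 and Mcm6 were also higher, by 0.82 to 1.15. Pcna had 195, 183 and 177 against 311, 181 and 157, which overlapped (-0.16, adjusted p = 0.688). Ccnd1 had 996, 653 and 621 against 224, 135 and 168 (2.10, SE 0.23, adjusted p = 1.277e-05), so that it was the higher in GFP-positive cells in both states. E2f1 was higher by 0.83, and Stmn1, which destabilises microtubules and is abundant in dividing cells, by 1.90 (adjusted p = 0.00983). The lower members were Cdkn1c, with 18, 19 and 10 against 69, 46 and 62 (-1.88, SE 0.31, adjusted p = 0.000597), Cdkn1a, with 375, 264 and 198 against 647, 793 and 714 (-1.40, SE 0.22, adjusted p = 0.000344), and Ccnd2 (-0.63, adjusted p = 0.0436). Without the first or the third DSS GFP-positive library 12 members were higher, and with all 4 sorted colon groups in the fit 13 were higher and 1 lower. Of the 26 calls, 11 passed in every alternative (Rrm2, Top2a, Birc5, Plk1, Cdk1, Cdc20, Cenpf, Kif23, Tpx2, Ccnd1 and Cdkn1c), and the others were lost in at least 1, Cdkn1a in the joint fit (adjusted p = 0.166) and Stmn1 without the first GFP-negative library (0.159). Whether the separation differed between DSS and normal colon is the same test as the difference of responses above, which 0 members passed.

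**Figure D4:**
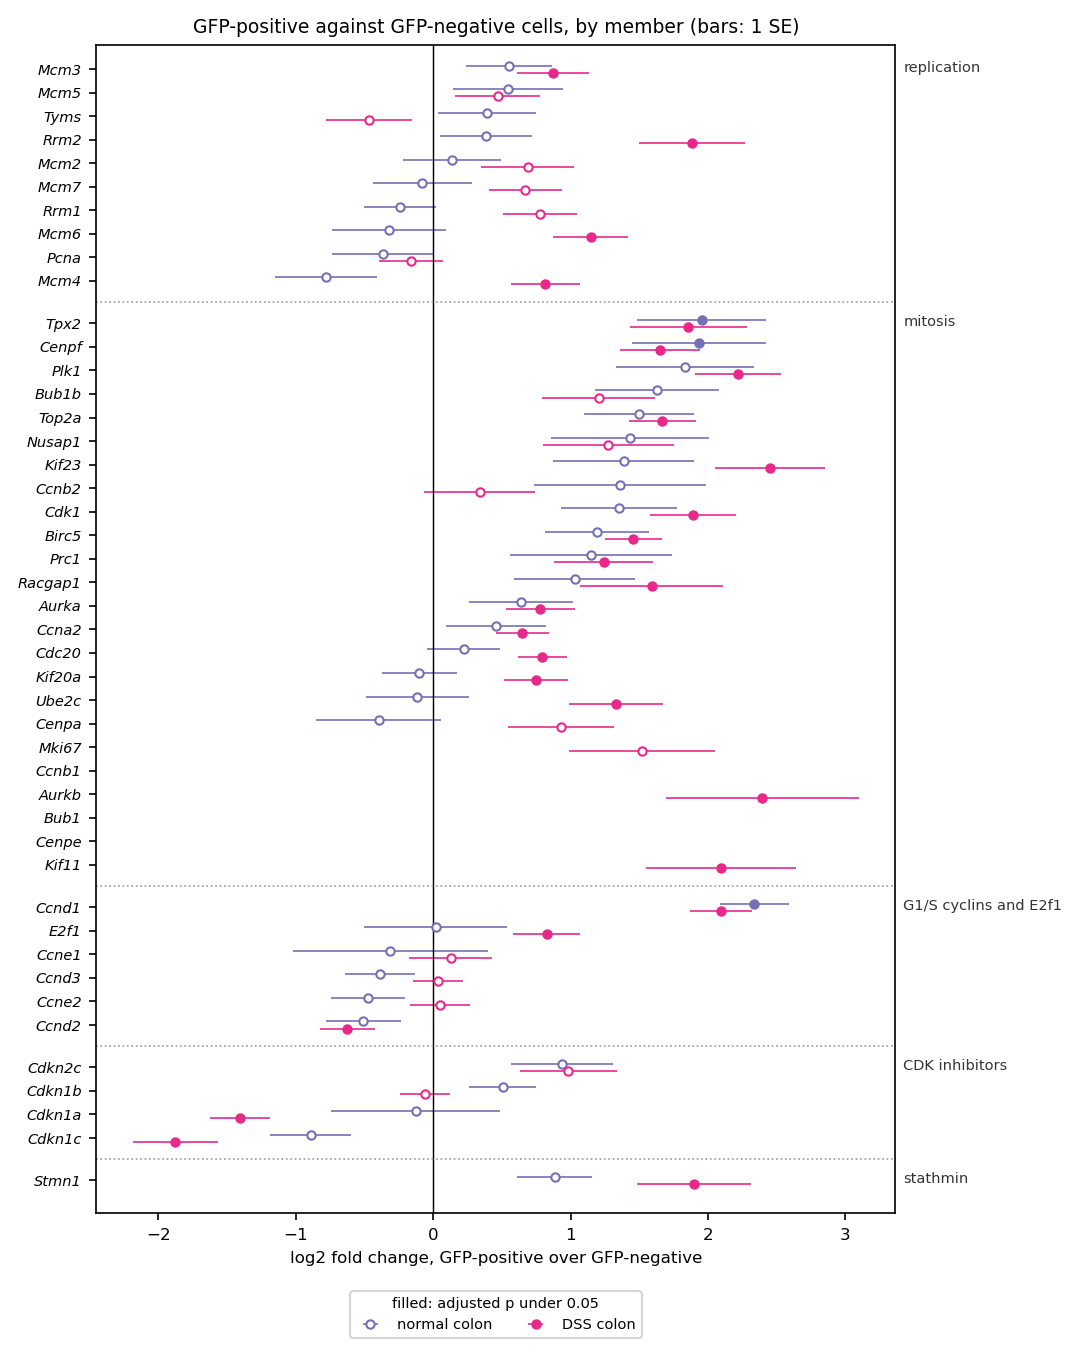
Log2 fold change of GFP-positive over GFP-negative cells for each member in normal colon and in DSS colon, with bars of 1 SE and filled points for an adjusted p under 0.05. In DSS colon all 21 mitotic members tested lie above 0 and 16 are filled, though 7 of the 21 passed the minimum mean only through GFP-positive cells. Ccnd1 is filled in both states.

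The authors' own test called fewer members. In the authors' deposited table, 0 members had an FDR under 0.05 in either DSS response (45 of 16653 genes for GFP-positive and 76 of 16386 for GFP-negative cells) or between the sorts of normal colon. In the authors' deposited table for the sorts of DSS colon, 3 of 45 members did, against 1.93% of all genes: Plk1 (FDR 0.0462), Ccnd1 (0.0187) and Stmn1 (0.0255).

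Sorted cells of the small intestine held little of the mitotic transcripts. Top2a had 13, 19 and 15 normalised counts in GFP-high, 0, 4 and 5 in GFP-low and 0, 6 and 6 in GFP-negative cells, against 201 and 187 in the unsorted libraries. Plk1 had 23, 0 and 11, then 37, 7 and 5, then 0, 0 and 3, against 122 and 178. Birc5 had 51, 70 and 42, then 40, 24 and 32, then 66, 74 and 9, against 658 and 361, and Pcna 180, 81 and 149, then 85, 95 and 84, then 197, 154 and 82, against 181 and 262. For all 24 mitotic members every sorted library lay below both unsorted libraries, which held for 6 of 10 replication members. Of these 24 members, 8 had a count of 0 in a library of every sorted group. The share of all genes separated in this way was not computed. A count of 0 in a library allows up to 3 reads, and this tissue had the shallowest library among those whose depth could be resolved, so that many members were not detectable in single libraries at this depth.

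No member passed a comparison between sorts of the small intestine with limma, and the authors' deposited table likewise had 0 members under an FDR of 0.05 in each. GFP-high against GFP-negative cells had 26 members tested, 4 of them at an unadjusted p under 0.05, as were 1311 of all 12412 genes tested. After adjustment 0.395% of all genes were higher and 0.5% lower. GFP-low against GFP-negative cells had 25 tested and 5 at an unadjusted p under 0.05, as were 2100 of all 12445 genes (after adjustment 0.112% higher and 0.562% lower). GFP-high against GFP-low cells had 28 tested and 3 at an unadjusted p under 0.05, as were 942 of all 12226 genes (after adjustment 0.368% higher and 0.0164% lower). Ccnd1 had 935, 726 and 945 in GFP-high, 489, 584 and 321 in GFP-low and 441, 152 and 433 in GFP-negative cells, shown after its values were seen; the GFP-high libraries lay above all others, with adjusted p of 0.143 against GFP-negative and 0.459 against GFP-low cells. Cdkn1c had 5, 11 and 19 in GFP-high and 75, 70 and 42 in GFP-negative cells (-2.44, adjusted p = 0.132).

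Against the unsorted preparations, which contain other cell types, more members were lower than higher in sorted cells in each of the 7 comparisons, though in 4 of them most members tested did not pass as lower. In normal colon 14 of 44 members tested were lower in GFP-positive cells and 1 higher (14.1% and 7.72% of all genes), and 20 of 44 lower in GFP-negative cells and 1 higher (13% and 5.81%). Of 23 mitotic members tested 10 were lower in GFP-positive cells (median log2 fold change -1.45) and 17 in GFP-negative cells (-2.83), against medians of -0.0642 and -0.0674 over all genes. Passing the minimum mean only through unsorted cells were 5 and 12 members, and among mitotic members past it in both groups 7 of 18 and 7 of 11 were lower (medians -1.32 and -1.80). The largest falls in GFP-positive cells were those of Cenpa, with 10, 16 and 14 against 137, 174 and 131 (-3.38, adjusted p = 0.00013), and Plk1 (-2.64, adjusted p = 0.00525), and Ccnd1 was higher (1.58, adjusted p = 0.0062). In GFP-negative cells they were Plk1 (-4.47, adjusted p = 0.000804) and Ccnb1, with 0, 5 and 0 against 11, 32 and 39 (-3.79, adjusted p = 0.0135), and Cdkn1c was higher, with 130, 131 and 105 against 68, 51 and 54 (1.07, adjusted p = 0.0388). In that comparison Plk1 and Ccnb1 passed the minimum mean only through unsorted cells. The lower count for GFP-positive cells was 8 without their first or second library, 9 without the second unsorted library and 19 without the first unsorted library. That for GFP-negative cells was 12 without the second unsorted library, and Cdkn1c was lost without any library but the first unsorted one. The unsorted libraries of the normal colon differed among themselves, with Birc5 at 528 in the second and 169 and 148 in the others. In the authors' deposited table, 3 and 10 of 45 members had an FDR under 0.05, against 6.73% and 6.74% of all genes, so that the count for GFP-positive cells lay at the background.

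In DSS colon 16 of 44 members tested were lower in GFP-positive than in unsorted cells and 2 higher (21.3% and 15.8% of all genes). In GFP-negative cells 33 of 44 were lower and 1 higher (19.3% and 13.7%). Of 23 mitotic members tested 9 were lower in GFP-positive cells (median -0.63) and 22 in GFP-negative cells (median -2.60), against -0.039 and -0.0515 over all genes. Passing the minimum mean only through unsorted cells were 2 and 9 members, and among mitotic members past it in both groups 8 of 21 and 13 of 14 were lower (medians -0.63 and -2.22). The unsorted libraries had Top2a at 338, 205 and 259, Birc5 at 461, 242 and 355, Plk1 at 119, 100 and 157, and Pcna at 999, 345 and 236. The largest falls in GFP-positive cells were those of Cenpa, with 23, 20 and 19 against 578, 135 and 79 (-3.10, adjusted p = 0.00229), and Cdkn1a, against 2555, 2284 and 1451 (-2.91, adjusted p = 7.204e-06), and Ccnd1 (0.88) and Ccnd3 (0.68) were higher. In GFP-negative cells they were Cenpa, with 17, 8 and 8 (-4.03, adjusted p = 0.000311), and Ccnb1, with 2, 1 and 0 against 35, 22 and 16 (-3.73, adjusted p = 0.000308), and Cdkn1c was higher, with 69, 46 and 62 against 16, 34 and 13 (1.55, adjusted p = 0.00659). There Ccnb1 passed the minimum mean only through unsorted cells. Without the second or the third GFP-positive library 8 and 10 members were lower in GFP-positive cells, and the 2 higher ones became 0 without the second unsorted or the first GFP-positive library. Without the first unsorted library 2 members were higher in GFP-negative cells. In the authors' deposited table, 2 and 14 of 45 members had an FDR under 0.05, against 10.8% and 9.69% of all genes, so that the count for GFP-positive cells lay below the background.

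In the small intestine 22, 25 and 18 of 42 members tested were lower in GFP-high, GFP-low and GFP-negative than in unsorted cells, against 11.1%, 13.7% and 6.96% of all genes. Higher were 1, 0 and 0 members, against 6.13%, 9.13% and 4.58% of all genes. In the last 2 comparisons 35 and 32 members had an unadjusted p under 0.05, in either direction, as had 4616 of 13434 and 3701 of 13374 genes tested. Of 22 mitotic members tested 15, 17 and 13 were lower, with medians of -3.55, -3.64 and -4.05. Of the 42 members 18, 18 and 22 passed the minimum mean only through the unsorted cells, where they are high; among mitotic members past it in both groups 4 of 6, 5 of 6 and 1 of 2 were lower, with medians of -3.37, -3.04 and -2.75. Ccnb1 was at 0 in all GFP-high and all GFP-negative libraries and Kif23 in all GFP-low libraries; with these set at the bound that 3 reads allow, the medians were -3.35, -3.61 and -4.02. The largest falls were those of Ube2c (10, 13 and 0 against 204 and 105, log2 fold change -4.78) and Plk1 (-4.49) in GFP-high cells, Ube2c (0, 5 and 0, -6.34) and Top2a (-5.97) in GFP-low cells, and Plk1 (-6.55) and Top2a (-5.73) in GFP-negative cells. Except for Plk1 in GFP-high cells, these passed the minimum mean only through unsorted cells. Cdkn2c was higher in GFP-high cells, with 52, 151 and 87 against 21 and 22 (1.99, adjusted p = 0.029). With only 2 unsorted libraries these calls depend on both. Without the second or the third unsorted library 0 members were lower in GFP-high cells, 1 and 2 in GFP-low cells and 0 in GFP-negative cells, with the remaining unsorted library assumed to vary like the other samples, and Cdkn2c was lost without either of them or without the second or the third GFP-high library. In the authors' deposited table, 5, 8 and 9 of 45 members had an FDR under 0.05, against 5.27%, 6.32% and 3.56% of all genes. In all 3 tissues epithelial and immune markers were higher in the unsorted preparations by the shares given above, and the part of those cells in the levels of the cycle genes was not tested.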

How the data were processed

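Expression was measured by 3' sequencing in 29 of 30 labelled libraries. Per the submitters' processing notes, TopHat2, Bowtie2 and DESeq were used with mm10 (versions, counting program and annotation: not given in the sources used here). The deposited scores are, per the file headers, normalised counts, which the authors rounded to whole numbers, so a count model was not used. The authors also deposited an FDR, a p-value adjusted in their DESeq test, and a log2 fold change per gene.

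Tests were made with limma 3.58.1 in R 4.3.3 on log2(normalised count + 1), with a variance trend and robust variance, over all genes whose mean reached 10 in either compared group, and p-values were adjusted over those genes by Benjamini and Hochberg (threshold 0.05). Fold changes on this scale understate the change of low genes. The difference of DSS responses was an interaction over the 4 sorted colon groups. The fits were tested on simulated data. The unit replaced the counts that the design had as a first choice. The members and gene lists were chosen with earlier results of these data known. Values per library are given for Top2a, Birc5, Plk1 and Pcna, in the DSS responses for up to 2 members of a class with the smallest adjusted p past the threshold, and elsewhere for the 2 largest changes in each direction. Alternatives were another pseudocount (5), no filter, equal library totals, neither trend nor robust variance, a replicate block, a joint fit of the sorted colon groups, and each library left out. Replicate numbers are shared by groups, but the correlations of same-numbered libraries did not all exceed 0.1 in any comparison, so they were not taken as pairs. A value at 0 was given a bound of 3 reads of its library.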

Additional observations from a re-analysis of the deposited data

How the results depend on the processing

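Of 2591 recomputed log2 fold changes of single members (199 values), 121 fell below the threshold and 53 rose past it. Where either fit was past the threshold, 0 changed sign. Changes of sign among values past it in neither fit were not counted. Counts of members moved by over 1.5 times as follows. With all 4 sorted colon groups in 1 fit, DSS gave 9 members higher and 4 lower in GFP-negative cells (4 and 1 otherwise), and GFP-positive against GFP-negative cells gave 8 higher in normal colon (3), and 13 higher and 1 lower in DSS colon (23 and 3). Lower members under DSS in GFP-negative cells were 2 with a pseudocount of 5, 2 with no filter and 3 with equal totals. Higher members between the sorts of normal colon were 5 with equal totals and 5 with neither trend nor robust variance. Against unsorted cells, neither trend nor robust variance gave 0 higher for GFP-negative normal (1), 0 for GFP-positive DSS (2; equal totals 1), 0 for GFP-high cells (1) and 10 lower for GFP-negative small intestine (18). With the replicate number as a replicate block the counts were 2 lower under DSS in GFP-negative cells, 5 higher between the sorts of normal colon, 0 higher in GFP-negative against unsorted normal cells, 2 higher in GFP-negative against unsorted DSS cells and 11 lower in GFP-negative against unsorted small intestine; same-numbered libraries correlated between -0.297 and 0.363, and no other count moved by over 1.5 times. In DSS colon without single libraries, 12 to 22 members were higher in GFP-positive than in GFP-negative cells. Leaving out single libraries gave 1 to 4 lower under DSS in GFP-positive cells, 1 to 5 higher and 0 to 3 lower in GFP-negative cells, and 1 to 4 higher between the sorts of normal colon. Against unsorted cells it gave 8 to 19 lower for GFP-positive normal, 0 to 2 higher and 12 to 21 lower for GFP-negative normal, 0 to 3 higher and 8 to 15 lower for GFP-positive DSS, 1 to 2 higher for GFP-negative DSS, 0 to 1 higher and 0 to 22 lower for GFP-high, 1 to 30 lower for GFP-low and 0 to 15 lower for GFP-negative small intestine. The cause of these moves was not tested. Equal totals shifted the median of all genes from -0.00845 to -0.133 under DSS in GFP-positive cells (991 higher and 1585 lower, 38.5% higher in place of 52%), from -0.0157 to -0.14 in GFP-negative cells (612 and 776, 44.1% in place of 58.5%) and from -0.0515 to -0.227 for GFP-negative against unsorted DSS cells (1378 and 3152, 30.4% in place of 41.5%); the shifts were from -0.0642 to 0.0693 for GFP-positive against unsorted normal cells, from 0.0616 to 0.168 for GFP-high against GFP-negative cells and from -0.14 to -0.0215 for GFP-high against unsorted cells. Members near the minimum mean of 10 rest on few reads. Calls of such members, as of Aurkb and Mki67 under DSS in GFP-positive cells, were lost without some single libraries. Smaller differences in them may not be detectable at this depth.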
